A study of Mus musculus with 6 samples.

Results

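The genes of cholesterol and fatty acid synthesis were followed in RNA-seq of mouse embryonic stem cells (mESCs) kept with or without a cytokine of the LIF family. The 37 genes were chosen by symbol from 28584 symbols in the deposited table, and none was left out. They fall into 4 sets: 18 enzymes of sterol synthesis, 6 genes of SREBP control, 8 enzymes of fatty acid synthesis and 5 genes of the LXR arm. The study asked whether oncostatin M (OSM) can stand in for leukemia inhibitory factor (LIF), which shares a receptor subunit with it, in keeping mESCs undifferentiated. The cells were 1 mESC line, labelled C57BL6/129S6 and taken from a C57BL/6X129S6 blastocyst, and every group shared a history on inactivated mouse fibroblast feeders with serum and LIF. The line was then kept for 10 passages (P10) in serum-containing basic medium with 1000 U/mL LIF (LIF-ESCs), with 10 ng/mL OSM and no LIF (OSM-ESCs), or with neither (-LIF-ESCs, the shared control). Each of the 3 groups had 2 libraries, described in the study as biological replicates, all from this line, so the p-values below measure the spread between these libraries only. With 2 libraries against 2, an exact permutation test cannot go below a two-sided p of 0.333, and all tests here borrow the spread across genes.

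Cells make cholesterol from acetyl-CoA in a long chain of steps. A first stretch runs through mevalonate to squalene, and a second closes the ring and trims it to cholesterol. When sterols are scarce in the endoplasmic reticulum, the escort protein SCAP brings the SREBP transcription factors to the Golgi, where they are cut, and the released fragments switch on sterol and fatty acid enzymes. INSIG proteins hold SCAP back when sterols are plentiful. The LXR receptors answer to oxysterols on the other side, raising the exporters that carry cholesterol out of the cell. Embryonic stem cells, like other dividing cells, need both lipids for new membrane.

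RNA was purified by its poly(A) tail, and levels are given as TPM, reads per gene divided by gene length and scaled to 1 total per library. Whole reads recovered from the TPM came to between 20712939 and 28994417 per library. Differences were tested with limma on log2(TPM + 1) for the 18556 genes at or over 1 TPM in at least 2 libraries, with p-values adjusted over all of them (Benjamini-Hochberg). To be called, a gene had to have an adjusted p under 0.05 together with a difference of at least 1 on the log2 scale (2-fold). Of the 37 genes, 36 were tested, and Nr1h3 was under the expression limit. The paper describes the -LIF-ESCs as differentiated, with flat clones only and far weaker staining for pluripotency proteins than with LIF or OSM. Each comparison with -LIF-ESCs thus also sets undifferentiated against differentiated cultures. The part of differentiation in the lipid gene differences was not tested. Pluripotency marker mRNA was still present in every group. The 10 listed genes summed to 4936 to 4956 TPM in -LIF-ESCs, 7178 to 7209 TPM in LIF-ESCs and 6658 to 6687 TPM in OSM-ESCs. Of the 10, 8 were higher and 1 lower than in -LIF-ESCs at adjusted p alone with each cytokine, and 5 of them were called higher and 1 lower. The -LIF-ESCs stood apart from the other groups at markers of other cell types. The 9 measured markers of trophoblast and simple epithelium summed to between 2633 and 2643 TPM in -LIF-ESCs and to between 252 and 276 TPM in the other 4 libraries. All 9 were lower in LIF-ESCs and OSM-ESCs at adjusted p alone, and none was at 0 in any library. The 14 fibroblast markers went the other way, summing to 95.2 to 102 TPM in -LIF-ESCs, 414 to 420 TPM in LIF-ESCs and 581 to 593 TPM in OSM-ESCs. Of these, 12 of 13 tested were higher than in -LIF-ESCs in each comparison at adjusted p alone, and Fap was at 0 in both -LIF-ESCs libraries. Beside these counts, 42.2% of all genes tested were higher and 25.9% lower at adjusted p alone with LIF, and 42.9% and 25.4% with OSM. With the 2-fold limit 13.3% were called higher and 8.09% lower with LIF, and 14.2% and 7.86% with OSM. The part of these 3 marker lists in the differences of the lipid genes was not tested, and fewer cells of a type and less RNA per cell cannot be told apart in bulk samples.

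Most of the lipid synthesis genes were at their highest in -LIF-ESCs. In LIF-ESCs, 22 of the 36 genes tested were called lower and 1, Abca1, was called higher, whereas 8.09% of all genes tested were called lower and 13.3% higher. OSM-ESCs gave the same counts, 22 lower and 1 higher, against 7.86% and 14.2% of all genes. The -LIF-ESCs libraries serve in both comparisons, so these 2 sets of values are not independent of each other. At adjusted p alone, 30 genes were lower and 5 higher in LIF-ESCs (25.9% and 42.2% of all genes), and 30 were lower and 4 higher in OSM-ESCs (25.4% and 42.9%). The median difference of the 36 genes was -1.23 with LIF and -1.26 with OSM on the log2(TPM + 1) scale, where the median of all genes tested was 0.17 and 0.18. The shift of all genes shrinks to 0.02 in both comparisons when libraries are rescaled by the median ratio, which moves the medians of the 36 genes to -1.40 and -1.44. Between OSM-ESCs and LIF-ESCs no gene of the 36 passed the test in either direction.

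**Figure D1:**
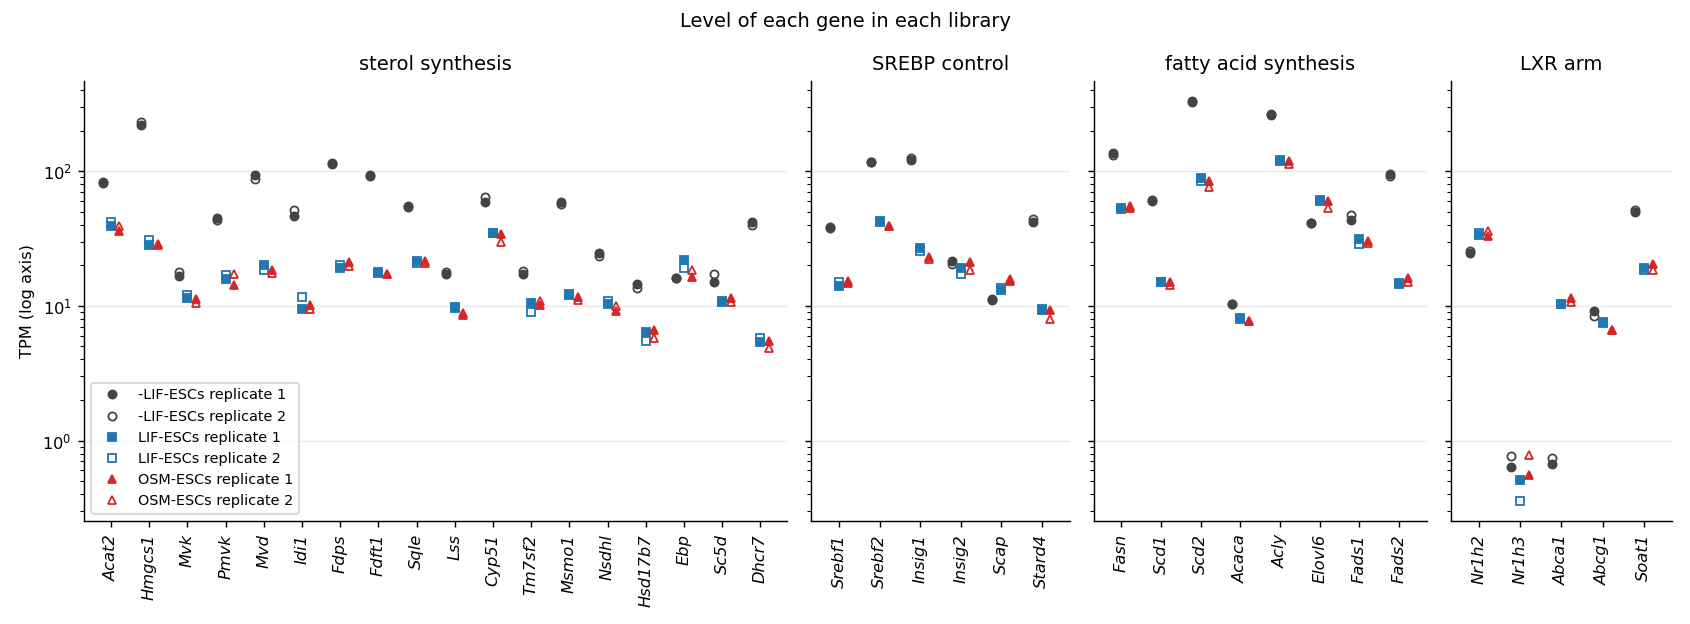
TPM (log axis) of each of the 37 genes in each of the 6 libraries, in the 4 sets; circles are -LIF-ESCs, squares LIF-ESCs and triangles OSM-ESCs, filled for replicate 1 and open for replicate 2. Most circles lie well above the squares and triangles, whereas Abca1 lies at 0.673 and 0.736 TPM in -LIF-ESCs and between 10.3 and 11.4 TPM in the other 4 libraries.

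The 18 sterol synthesis enzymes together took 1032 and 1040 TPM in -LIF-ESCs, 304 and 308 TPM in LIF-ESCs and 292 and 290 TPM in OSM-ESCs. The mean sum was thus 3.39-fold higher without cytokine than with LIF and 3.56-fold higher than with OSM, and the libraries of a group lay close together. In each comparison with -LIF-ESCs 12 of the 18 were called lower, 5 were lower by under 2-fold on the log2(TPM + 1) scale, and Ebp was the exception. Of all genes tested 8.09% were called lower with LIF and 7.86% with OSM. The median difference was -1.23 with LIF and -1.28 with OSM.

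The stretch from acetyl-CoA to squalene had the lower median in the cytokine groups. Hmgcs1, which makes HMG-CoA and lies at chr13:119690379-119708260 (GRCm38, as for all gene positions here, from GENCODE M21), was the most abundant of the 18 without cytokine, at 221 and 231 TPM in -LIF-ESCs, 28.3 and 31.0 TPM in LIF-ESCs and 28.7 and 28.5 TPM in OSM-ESCs. Its mean was 7.61-fold lower in LIF-ESCs (-2.89 ± 0.054 (SE), adjusted p = 3.5e-06) and 7.90-fold lower in OSM-ESCs (-2.94 ± 0.054 (SE), adjusted p = 2.99e-06). Only 98 of the 18556 genes tested had a lower value in the first comparison and 79 in the second, and the 4 cytokine libraries lay close together. Fdps, the farnesyl diphosphate synthase at the branch point to other isoprenoids, measured 115 and 112 TPM in -LIF-ESCs, 19.2 and 20.1 TPM in LIF-ESCs and 21.1 and 19.7 TPM in OSM-ESCs. Fdft1, the squalene synthase that commits farnesyl units to sterols, measured 92.9 and 92.1 TPM in -LIF-ESCs, 17.8 and 17.5 TPM in LIF-ESCs and 17.3 and 17.3 TPM in OSM-ESCs. For both the cytokine libraries lay far below those without, with differences of -2.48 (Fdps) and -2.33 (Fdft1) for LIF and of -2.42 and -2.35 for OSM. Of the exon bases of Fdps 26.7% are shared with the gene model Gm43738 on the same strand. Fdft1 shares 18.3% with Ctsb and Hmgcs1 12.1% with the gene model Gm48342, each on the other strand. The strand setting of the counting was not given in the sources used here.

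Mvd, the decarboxylase that ends the mevalonate steps, was at 93.6 and 87.9 TPM in -LIF-ESCs, 20.2 and 18.5 TPM in LIF-ESCs and 18.5 and 17.4 TPM in OSM-ESCs. Idi1, which turns its product into the second isoprene unit, was at 46.4 and 51.7 TPM in -LIF-ESCs, 9.46 and 11.6 TPM in LIF-ESCs and 10.1 and 9.55 TPM in OSM-ESCs. Idi1 shares 9.22% of its exon bases with the gene model Gm48574 on the other strand. Pmvk, the phosphomevalonate kinase, was at 45.2 and 43.2 TPM in -LIF-ESCs, 15.7 and 17.0 TPM in LIF-ESCs and 14.3 and 17.1 TPM in OSM-ESCs. No cytokine library reached the level of a -LIF-ESCs library for any of the 3, and the differences in LIF-ESCs were -2.17, -2.12 and -1.38. Acat2, the thiolase that joins the first acetyl units, was just inside the 2-fold limit. Its levels were 81.0 and 82.6 TPM in -LIF-ESCs, 39.0 and 41.6 TPM in LIF-ESCs and 35.9 and 39.1 TPM in OSM-ESCs, a difference of -1.004 ± 0.059 (SE), adjusted p = 7.04e-05 in LIF-ESCs and -1.10 ± 0.059 (SE), adjusted p = 5.06e-05 in OSM-ESCs. Mvk, the mevalonate kinase, was the 1 enzyme of these 8 under the limit, with mean levels of 17.2 ± 0.765 TPM in -LIF-ESCs and 11.7 ± 0.441 TPM in LIF-ESCs (SD, n = 2). The median difference of these 8 enzymes was -2.15 with LIF and -2.24 with OSM.

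In the 10 enzymes from squalene to cholesterol the median difference was -0.96 with LIF and -1.01 with OSM. Of the 10, 5 were called lower in each comparison (8.09% of all genes with LIF and 7.86% with OSM). No test was made between the 2 stretches. Dhcr7, which carries out the last reduction to cholesterol in 1 of the branches (chr7:143823145-143848410), stood at 42.0 and 40.1 TPM in -LIF-ESCs, 5.35 and 5.74 TPM in LIF-ESCs and 5.50 and 4.85 TPM in OSM-ESCs. The mean of Dhcr7 was 7.40-fold lower in LIF-ESCs (-2.68 ± 0.079 (SE), adjusted p = 9.75e-06) and 7.94-fold lower in OSM-ESCs (-2.77 ± 0.079 (SE), adjusted p = 8.56e-06). Msmo1, the methylsterol monooxygenase, stood at 59.0 and 57.5 TPM in -LIF-ESCs, 12.0 and 12.2 TPM in LIF-ESCs and 11.6 and 11.1 TPM in OSM-ESCs. Sqle, the squalene epoxidase and a rate-limiting step of the pathway, stood at 55.3 and 54.6 TPM in -LIF-ESCs, 21.4 and 20.8 TPM in LIF-ESCs and 21.6 and 20.9 TPM in OSM-ESCs. Both lay lower in every cytokine library, Msmo1 by 4.82-fold and Sqle by 2.60-fold in LIF-ESCs. Nsdhl, a dehydrogenase of the demethylation steps, was measured at 24.5 and 23.5 TPM in -LIF-ESCs, 10.2 and 10.8 TPM in LIF-ESCs and 9.19 and 10.0 TPM in OSM-ESCs. Hsd17b7, the ketosteroid reductase that follows it, was measured at 14.6 and 13.6 TPM in -LIF-ESCs, 6.41 and 5.47 TPM in LIF-ESCs and 6.57 and 5.75 TPM in OSM-ESCs. With LIF the differences of these 2 were -1.12 and -1.12, with OSM -1.24 and -1.08, with libraries that did not overlap. Over the 12 enzymes called, adjusted p ran from 2.96e-06 to 0.00035 in LIF-ESCs and from 2.57e-06 to 0.000404 in OSM-ESCs.

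The 5 others of the pathway that fell did so by less than 2-fold on the log2(TPM + 1) scale: Mvk, Lss (the lanosterol synthase that closes the rings), Cyp51 (the lanosterol demethylase), Tm7sf2 (a sterol reductase) and Sc5d (a sterol desaturase). In TPM the mean of Lss was 2.02-fold lower in OSM-ESCs. The differences of the 5 ran from -0.80 to -0.51 in LIF-ESCs and from -0.94 to -0.51 in OSM-ESCs, with adjusted p of 0.00016 to 0.00232 and 8.7e-05 to 0.00316. Cyp51 was the most abundant of them, at 59.1 and 63.8 TPM in -LIF-ESCs, 34.5 and 35 TPM in LIF-ESCs and 34.0 and 29.8 TPM in OSM-ESCs. Tm7sf2 shares 12.1% of its exon bases with Vps51 on the same strand. Lbr, no member of the list, encodes a second protein with the same reductase activity and was the more abundant of the pair, at 223 and 230 TPM in -LIF-ESCs, 80.8 and 79.1 TPM in LIF-ESCs and 77.9 and 71.1 TPM in OSM-ESCs. Lbr was 12.8 to 12.9 times the level of Tm7sf2 in -LIF-ESCs and 6.57 to 8.83 times in the cytokine libraries, and was itself called lower (-1.49 ± 0.053 (SE), adjusted p = 1.65e-05 in LIF-ESCs). Ebp, the sterol isomerase, was the only sterol enzyme without a lower level in the cytokine groups. Its levels were 16.1 and 16.0 TPM in -LIF-ESCs, 21.9 and 19.1 TPM in LIF-ESCs and 16.4 and 18.4 TPM in OSM-ESCs, a difference of 0.33 ± 0.088 (SE), adjusted p = 0.0199 in LIF-ESCs and 0.11 ± 0.088 (SE), adjusted p = 0.325 in OSM-ESCs. The first difference was at adjusted p = 0.175 after rescaling by the median ratio and at 0.0764, 0.0811 and 0.0907 without replicate 1 of -LIF-ESCs, replicate 2 of -LIF-ESCs and replicate 1 of LIF-ESCs, and the second was -0.07 with the rescaling.

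Promoter sequence was read for the genes of the list from the 250 bases before each RefSeq gene start (GRCm38.p6), which was given for 29 of the 37 genes in 38 windows. The letters were searched on both strands, and each motif was counted by itself, also where it overlapped another. CCAAT, the box bound by NF-Y, a partner of the SREBPs at many sterol genes, was found in 14 of 15 sterol synthesis genes (93.3%), in 20 of the 29 genes (69.0%), and in 40.5% of the genes tested that have a window. GGGCGG, the box bound by Sp1, was found in 14 of 15 sterol synthesis genes, in 22 of the 29 (75.9%) and in 62.4% of the genes tested. The sterol response element, searched as TCACNCCAC, was in the window of 1 gene of the 29, Hmgcs1, and in 1.35% of the genes tested. The E-box CACGTG, another SREBP motif, was in 6 of the 29 (20.7%) and in 9.84% of the genes tested. In the fatty acid set CCAAT was in 1 of 5 genes and GGGCGG in 2 of 5. These are matches of letters in a short window and not binding sites, and a variant of a motif would be missed. Below, 150 bases that lie outside the annotated gene model are shown for 3 sterol genes: Hmgcs1 with its response element (chr13:119690201-119690350 on the plus strand), Mvd with 2 CCAAT boxes (chr8:122443423-122443572 on the minus strand), and Ebp, whose level was not lower in the cytokine groups (chrX:8193513-8193662 on the minus strand). Capitals mark TCACNCCAC, CCAAT and GGGCGG, each on either strand, and the strands are read 5′ to 3′.
Hmgcs1: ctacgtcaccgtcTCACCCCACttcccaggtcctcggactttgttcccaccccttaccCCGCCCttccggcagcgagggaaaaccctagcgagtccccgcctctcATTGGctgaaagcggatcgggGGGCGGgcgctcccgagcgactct
Mvd: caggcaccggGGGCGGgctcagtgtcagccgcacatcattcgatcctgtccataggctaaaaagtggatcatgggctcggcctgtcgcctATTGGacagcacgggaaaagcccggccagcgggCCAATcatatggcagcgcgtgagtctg
Ebp: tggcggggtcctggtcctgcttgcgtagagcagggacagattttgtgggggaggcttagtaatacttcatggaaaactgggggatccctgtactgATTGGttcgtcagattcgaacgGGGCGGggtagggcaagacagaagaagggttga
The response element of Hmgcs1 starts 137 bases before the gene start. Ebp has 1 CCAAT and 1 GGGCGG in this stretch, as Hmgcs1 has 1 and 2 and Mvd 2 and 1, so these letters alone do not separate the gene that was not lower from the genes that were.

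The 6 genes of SREBP control summed to 351 and 354 TPM in -LIF-ESCs, 125 and 123 TPM in LIF-ESCs and 122 and 119 TPM in OSM-ESCs. Of the 6, 4 were called lower in each comparison (8.09% of all genes with LIF and 7.86% with OSM). Srebf2, the SREBP that favours sterol genes, was at 118 and 117 TPM in -LIF-ESCs, 42.9 and 42.2 TPM in LIF-ESCs and 38.8 and 39.4 TPM in OSM-ESCs. Srebf1, which favours fatty acid genes, was at 38.3 and 37.9 TPM in -LIF-ESCs, 14.1 and 15.1 TPM in LIF-ESCs and 14.7 and 15.2 TPM in OSM-ESCs. Both fell together, by 1.44 and 1.33 on the log2 scale in LIF-ESCs and by 1.56 and 1.29 in OSM-ESCs. The level of Srebf2 was 3.07 and 3.08 times that of Srebf1 without cytokine, 3.05 and 2.80 times with LIF and 2.64 and 2.59 times with OSM. These are levels of mRNA, and the files hold no measure of the cut, active protein.

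The 2 INSIG genes differed from each other. Insig1, itself a classical SREBP target (chr5:28071363-28078662), had 121 and 124 TPM in -LIF-ESCs, 26.7 and 25.6 TPM in LIF-ESCs and 23.0 and 22.2 TPM in OSM-ESCs. The mean of Insig1 was 4.69-fold lower in LIF-ESCs (-2.19 ± 0.046 (SE), adjusted p = 4.4e-06) and 5.42-fold lower in OSM-ESCs (-2.39 ± 0.046 (SE), adjusted p = 3.11e-06). Insig2, known as the less sterol-dependent of the pair, had 21.4 and 20.3 TPM in -LIF-ESCs, 19.1 and 17.4 TPM in LIF-ESCs and 21.1 and 18.5 TPM in OSM-ESCs. Its libraries overlapped between -LIF-ESCs and OSM-ESCs, and neither comparison passed the test (adjusted p = 0.0972 and 0.464). With the median-ratio rescaling Insig2 was lower in both (adjusted p = 0.00915 and 0.0295) and it was likewise lower in limma's voom on recovered reads (adjusted p = 0.000906 and 0.0161). The ratio of Insig1 to Insig2 was 5.64 and 6.12 without cytokine, 1.40 and 1.47 with LIF and 1.09 and 1.19 with OSM.

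Stard4, a small carrier that moves cholesterol between membranes, was at 41.8 and 43.8 TPM in -LIF-ESCs, 9.31 and 9.43 TPM in LIF-ESCs and 9.23 and 7.94 TPM in OSM-ESCs. It was 4.57-fold lower in LIF-ESCs and 4.99-fold lower in OSM-ESCs, with no overlap. Scap, the escort of the SREBPs, went the other way by a small amount, at 11.2 and 11 TPM in -LIF-ESCs, 13.2 and 13.5 TPM in LIF-ESCs and 15.2 and 15.9 TPM in OSM-ESCs. Its differences were 0.24 ± 0.055 (SE), adjusted p = 0.0109 in LIF-ESCs and 0.45 ± 0.055 (SE), adjusted p = 0.001 in OSM-ESCs. The first of these was at adjusted p = 0.249 after median-ratio rescaling and at 0.052 and 0.0577 without replicate 2 of -LIF-ESCs or of LIF-ESCs, whereas the second passed the test in each alternative. Of the exon bases of Scap 13.2% overlap a gene model on the other strand.

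**Figure D2:**
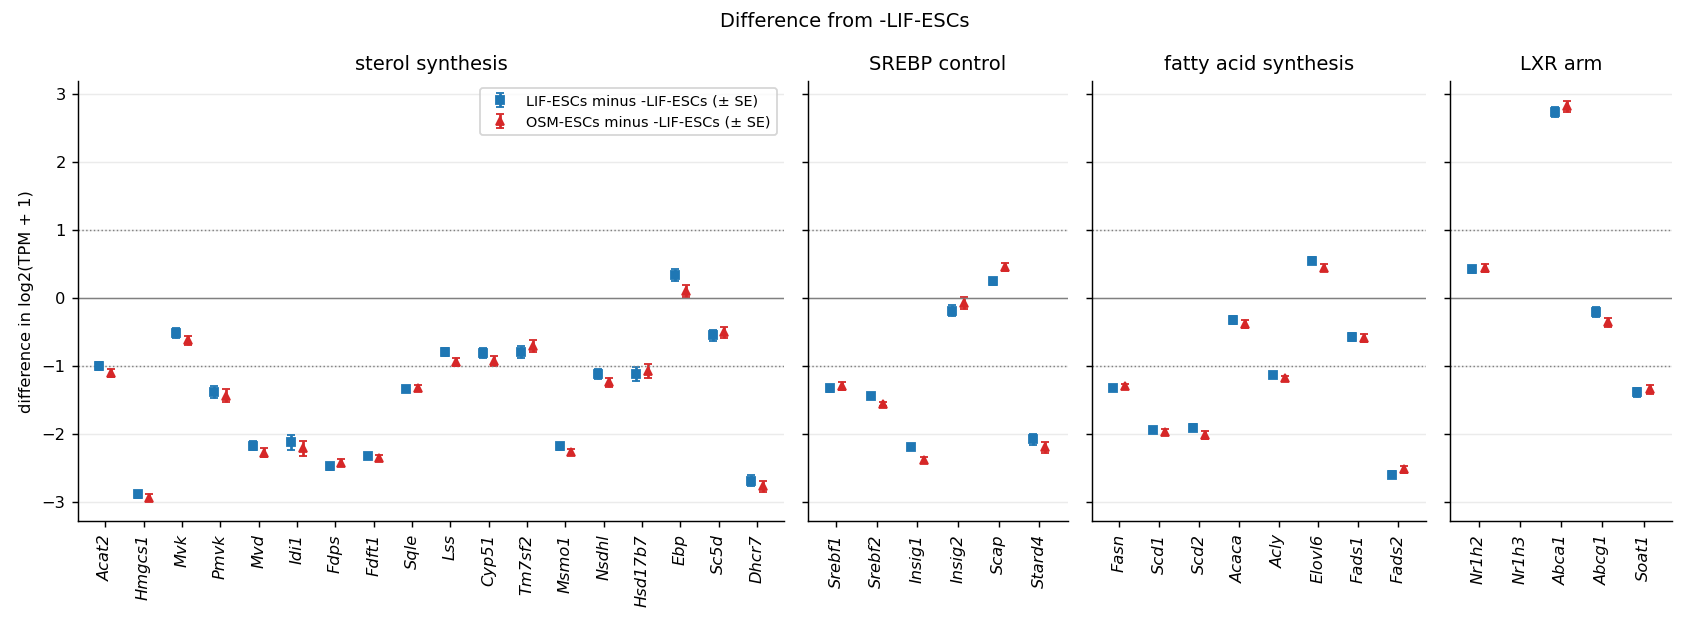
Difference in log2(TPM + 1) from -LIF-ESCs for each gene tested, with LIF-ESCs as blue squares, OSM-ESCs as red triangles and bars for the SE; dotted lines mark 2-fold. Hmgcs1 at -2.89 and -2.94 is the lowest gene of the list, Abca1 at 2.73 and 2.81 the highest, and the 2 symbols of a gene, which share their control libraries, lie close together.

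The 8 genes of fatty acid synthesis summed to 974 and 979 TPM in -LIF-ESCs, 390 and 387 TPM in LIF-ESCs and 384 and 365 TPM in OSM-ESCs. Of the 8, 5 were called lower in each comparison (8.09% of all genes with LIF and 7.86% with OSM), with medians of -1.23 and -1.24. At the start of the route, Acly, which splits citrate to give cytosolic acetyl-CoA, measured 263 and 264 TPM in -LIF-ESCs, 120 and 121 TPM in LIF-ESCs and 119 and 113 TPM in OSM-ESCs. Fasn, the synthase that builds palmitate, measured 136 and 132 TPM in -LIF-ESCs, 52.5 and 53.2 TPM in LIF-ESCs and 52.8 and 55.0 TPM in OSM-ESCs. Both were more than 2-fold lower in the cytokine groups (-1.13 and -1.33 in LIF-ESCs, -1.18 and -1.30 in OSM-ESCs). Acaca, the acetyl-CoA carboxylase between them, moved far less, from a mean of 10.4 TPM in -LIF-ESCs to 8.10 TPM in LIF-ESCs (-0.32 ± 0.059 (SE), adjusted p = 0.00507) and 7.73 TPM in OSM-ESCs (-0.38 ± 0.059 (SE), adjusted p = 0.0026).

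The desaturases Fads2, Scd1 and Scd2 had the lowest differences of the set. Scd2, a stearoyl-CoA desaturase and the most abundant of the 37 genes in -LIF-ESCs, had 325 and 331 TPM in -LIF-ESCs, 88.4 and 85.0 TPM in LIF-ESCs and 84.3 and 76.9 TPM in OSM-ESCs. Its paralogue Scd1 had 60.6 and 60.3 TPM in -LIF-ESCs, 15.0 and 15.1 TPM in LIF-ESCs and 14.9 and 14.4 TPM in OSM-ESCs. The 2 genes fell in step, 3.78-fold and 4.02-fold in LIF-ESCs and 4.07-fold and 4.13-fold in OSM-ESCs, and the ratio of Scd2 to Scd1 stayed between 5.35 and 5.90 in the 6 libraries. Both lie on chromosome 19, Scd1 at chr19:44394455-44407879 and Scd2 at chr19:44293674-44306864. How reads that match both copies were handled was not given in the sources used here. Fads2 and Fads1, which take the first and a later desaturation step to polyunsaturated fatty acids, did not keep their ratio, although they too lie close together on chromosome 19 (chr19:10062765-10101746 and chr19:10182888-10196877). Fads2 was at 94.6 and 92.6 TPM in -LIF-ESCs, 14.8 and 14.5 TPM in LIF-ESCs and 16.0 and 15.0 TPM in OSM-ESCs, a difference of -2.60 ± 0.048 (SE), adjusted p = 3.44e-06 in LIF-ESCs and -2.52 ± 0.048 (SE), adjusted p = 3.14e-06 in OSM-ESCs. Fads1 was at 43.6 and 46.8 TPM in -LIF-ESCs, 31.2 and 29.0 TPM in LIF-ESCs and 30.2 and 29.3 TPM in OSM-ESCs, with differences of -0.57 (adjusted p = 0.000544) and -0.59 (adjusted p = 0.000489). The level of Fads2 was thus 2.17 and 1.98 times that of Fads1 in -LIF-ESCs and between 0.474 and 0.529 times in the cytokine libraries.

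Elovl6, which lengthens palmitate to stearate, was the 1 gene of the 8 in the fatty acid synthesis set that was higher with cytokine. Its levels were 41.0 and 41.4 TPM in -LIF-ESCs, 60.4 and 61.1 TPM in LIF-ESCs and 59.6 and 53.7 TPM in OSM-ESCs. The difference was 0.55 ± 0.057 (SE), adjusted p = 0.000562 in LIF-ESCs and 0.45 ± 0.057 (SE), adjusted p = 0.00122 in OSM-ESCs, under 2-fold, and its libraries did not overlap with those of -LIF-ESCs. After median-ratio rescaling the values were 0.38 and 0.26, with adjusted p = 0.0011 and 0.0043.

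**Figure D3:**
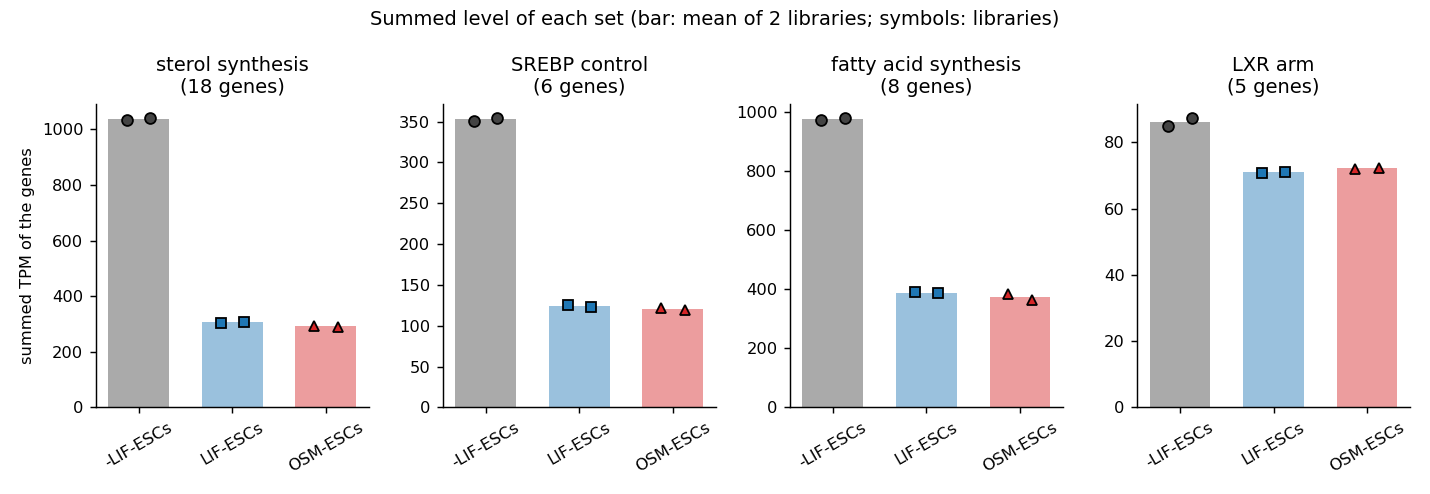
Summed TPM of the genes of each set in each group, with bars for the mean of 2 libraries and symbols for the libraries; the 4 vertical axes have different scales. The first 3 sets have means of 1036, 353 and 977 TPM in -LIF-ESCs and of 306, 124 and 388 TPM in LIF-ESCs, whereas the LXR arm goes from a mean of 86.1 TPM in -LIF-ESCs to 70.9 TPM in LIF-ESCs and 72.1 TPM in OSM-ESCs.

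The LXR arm did not move as 1 set. Abca1, the exporter that loads cholesterol on apolipoprotein A-I (chr4:53030787-53159895), was the 1 gene of the 37 called higher, at 0.673 and 0.736 TPM in -LIF-ESCs, 10.4 and 10.3 TPM in LIF-ESCs and 11.4 and 10.6 TPM in OSM-ESCs. These levels rest on 79 and 71 recovered reads in -LIF-ESCs and on 966 to 1331 reads in the other libraries. Abca1 was under 1 TPM in both -LIF-ESCs libraries, so it passed the expression limit only through the cytokine libraries, where it was high. In TPM the mean of Abca1 was 14.7-fold higher in LIF-ESCs and 15.6-fold higher in OSM-ESCs. On the log2(TPM + 1) scale limma gave 2.73 ± 0.080 (SE), adjusted p = 9.57e-06 and 2.81 ± 0.080 (SE), adjusted p = 8.47e-06. These differences are smaller than the TPM folds because 1 was added to -LIF-ESCs levels under 1 TPM. Counting error alone came to 0.122 and 0.121 on the log2 ratio of the reads. The lowest cytokine library was far above the highest library without. Of the 18556 genes tested, 222 had a higher value in LIF-ESCs and 226 in OSM-ESCs. Abcg1, the exporter that acts after it, had 9.15 and 8.46 TPM in -LIF-ESCs, 7.39 and 7.63 TPM in LIF-ESCs and 6.65 and 6.63 TPM in OSM-ESCs. It was lower by a small amount, -0.20 ± 0.070 (SE), adjusted p = 0.0476 in LIF-ESCs and -0.36 ± 0.070 (SE), adjusted p = 0.00633 in OSM-ESCs. The first of these did not pass the test in several alternatives, such as no filter (adjusted p = 0.0809) and any of the 6 libraries left out (adjusted p of 0.0631 to 0.192). The ratio of Abca1 to Abcg1 was 0.0736 and 0.0871 without cytokine, 1.40 and 1.35 with LIF and 1.72 and 1.60 with OSM. Abca1 in -LIF-ESCs and the fibroblast markers were both low, and whether a cell type other than the mESCs carried Abca1 was not tested.

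Soat1, which stores cholesterol as esters, was at 49.8 and 51.8 TPM in -LIF-ESCs, 19.1 and 18.4 TPM in LIF-ESCs and 20.5 and 18.3 TPM in OSM-ESCs. It was called lower in both comparisons (-1.39 ± 0.066 (SE), adjusted p = 3.82e-05 in LIF-ESCs, -1.34 ± 0.066 (SE), adjusted p = 4.04e-05 in OSM-ESCs), with no overlap. The receptors themselves were of unequal level. Nr1h2 (LXRβ) was at 24.6 and 25.6 TPM in -LIF-ESCs, 33.3 and 34.4 TPM in LIF-ESCs and 32.9 and 35.8 TPM in OSM-ESCs. Nr1h3 (LXRα) was at 0.632 and 0.769 TPM in -LIF-ESCs, 0.509 and 0.353 TPM in LIF-ESCs and 0.551 and 0.787 TPM in OSM-ESCs, on 8 to 24 recovered reads a library, and was not tested. Nr1h2 was higher by under 2-fold (0.42 ± 0.057 (SE), adjusted p = 0.00158 in LIF-ESCs, 0.44 ± 0.057 (SE), adjusted p = 0.00132 in OSM-ESCs) and remained past the test after rescaling (0.25 and 0.26, adjusted p = 0.0181 and 0.0164). The median of the 4 genes tested was 0.11 with LIF and 0.04 with OSM, and turned to -0.05 and -0.13 with the rescaling, so no direction is given for the set.

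The stretch before the start of Abca1 is shown because it was the gene called higher (chr4:53159896-53160045 on the minus strand, GRCm38.p6, RefSeq). Capitals mark its 1 GGGCGG, and the E-box cacgtg near the 5′ end was left in lower case.
Abca1: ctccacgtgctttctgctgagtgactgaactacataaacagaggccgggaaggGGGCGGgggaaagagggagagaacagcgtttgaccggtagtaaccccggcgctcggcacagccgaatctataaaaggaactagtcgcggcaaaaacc
No CCAAT was in these bases. The LXR element of the DR4 type was searched as 2 copies of AGGTCA with NNNN between them. It was in none of the 29 genes with a window and in 0.0148% of all genes with a window. None of the 11174 genes tested that have a window held it either, so this search could not tell the genes of the list from others. A variant of the element would be missed, and no match says only that these exact letters were not there.

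OSM-ESCs and LIF-ESCs were set against each other to see whether the 2 cytokines left the lipid genes at different levels. No gene of the 36 passed adjusted p in limma's test, where 0.463% of all genes were higher and 0.129% lower at adjusted p alone and 0.0323% and 0.0485% with the 2-fold limit. At an unadjusted p under 0.05, 1 gene was higher and 3 were lower, against 9.8% and 5.5% of all genes. The differences ran from -0.22 to 0.21 with a median of -0.05, where the median of all genes was 0.01. The 95% intervals of the 36 genes, which are not adjusted for their number, lay between -0.45 and 0.35, so none reached 2-fold in either direction. The 4 genes at unadjusted p were Insig1, Scap, Srebf2 and Ebp. Insig1 was lower in both OSM-ESCs libraries than in both of LIF-ESCs (-0.20, interval -0.32 to -0.09, adjusted p = 0.151). Scap was higher in both (0.21, interval 0.07 to 0.35, adjusted p = 0.187). It was past the test in limma's voom on recovered reads (0.23, adjusted p = 0.0213), in which 30 of the 37 genes could be fitted. Among all 17273 genes fitted with voom, 898 were higher and 434 lower at adjusted p alone in this comparison. Srebf2 was lower in both OSM-ESCs libraries (-0.12, interval -0.21 to -0.03, adjusted p = 0.218). Ebp had a difference of -0.22 (adjusted p = 0.326), with both OSM-ESCs libraries below those of LIF-ESCs. For Hmgcs1 the interval was -0.19 to 0.09, for Fasn -0.07 to 0.13 and for Abca1 -0.12 to 0.28. A p that misses the threshold does not show that the levels were alike, and the intervals give the sizes these libraries leave possible. Of 13 fibroblast markers tested 4 had higher levels with OSM than in LIF-ESCs at adjusted p, and 1 of 10 pluripotency markers was lower. With only the groups compared in the fit, or with replicate number added to it, 0 of all 18556 genes passed adjusted p in this comparison.

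**Figure D4:**
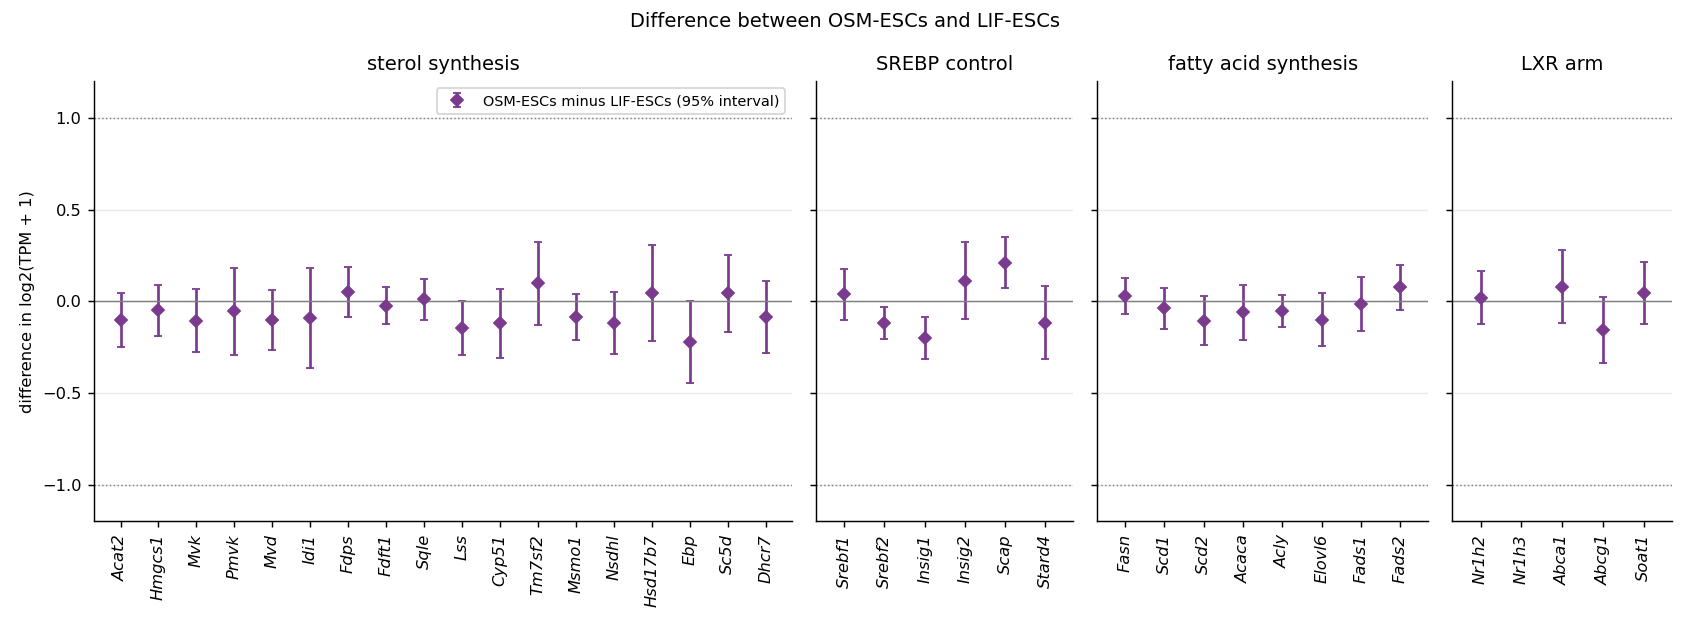
Difference between OSM-ESCs and LIF-ESCs in log2(TPM + 1) for each gene tested, with the 95% interval; dotted lines mark 2-fold. All points lie between -0.22 and 0.21, and no interval reaches a dotted line.

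Genes next to these pathways were taken from 6 further lists, of which 5 are given here by counts, with the called genes of highest and lowest difference. Among all genes tested 13.3% were called higher and 8.09% lower with LIF, and 14.2% and 7.86% with OSM. At adjusted p alone 42.2% were higher and 25.9% lower with LIF, and 42.9% and 25.4% with OSM. Farnesyl diphosphate also feeds the isoprenoid branches, which make ubiquinone, dolichol and the lipid anchors of proteins. Of 10 such genes 3 were called higher in LIF-ESCs and none lower (13.3% and 8.09% of all genes), and at adjusted p alone 8 were higher and 1 lower (42.2% and 25.9%). Pggt1b, a subunit of a geranylgeranyl transferase, was the highest, at 16.0 and 15.9 TPM in -LIF-ESCs, 39.3 and 38.5 TPM in LIF-ESCs and 41.7 and 37.1 TPM in OSM-ESCs (1.23 ± 0.065 (SE), adjusted p = 5.16e-05 in LIF-ESCs). The median of the list was 0.56 with LIF and 0.47 with OSM, where the enzymes up to squalene had -2.15 and -2.24. Of 9 genes that process the SREBPs or degrade sterol enzymes, 1 was called higher and none lower in each comparison, a share near that of all genes. That gene was Mbtps2, a protease that cuts the SREBPs within the membrane, at 7.88 and 8.43 TPM in -LIF-ESCs, 20.9 and 21.1 TPM in LIF-ESCs and 21.1 and 19.0 TPM in OSM-ESCs (1.27 ± 0.071 (SE), adjusted p = 6.1e-05). At adjusted p alone 5 were higher and 3 lower with LIF, where 42.2% and 25.9% of all genes were, and Mbtps1, the protease of the first cut, was among the lower ones (-0.75 in LIF-ESCs).

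Of 19 genes of fatty acid supply and elongation LIF gave 1 called higher and 2 called lower (13.3% and 8.09% of all genes), and OSM 1 and 3 (14.2% and 7.86%). At adjusted p alone 13 were lower and 4 higher with LIF (25.9% and 42.2% of all genes), 11 and 4 with OSM (25.4% and 42.9%). The lowest was Acsl3, an acyl-CoA synthetase of the endoplasmic reticulum and lipid droplets, at 125 and 129 TPM in -LIF-ESCs, 20.8 and 18.6 TPM in LIF-ESCs and 21.2 and 19.8 TPM in OSM-ESCs (-2.63 ± 0.069 (SE), adjusted p = 7.69e-06 in LIF-ESCs). The highest was Elovl7, an elongase, at 4.78 and 4.12 TPM in -LIF-ESCs, 12.9 and 12.6 TPM in LIF-ESCs and 12.1 and 9.76 TPM in OSM-ESCs (1.33 ± 0.12 (SE), adjusted p = 0.000314). Of 11 genes tested of sterol transport and oxysterols 1 was called higher and 3 lower in each comparison, beside 13.3% and 8.09% of all genes with LIF and 14.2% and 7.86% with OSM. Lbr, described above, was the lowest. The highest was Ch25h, which makes an oxysterol that is an LXR ligand and an inhibitor of SREBP processing, at 0.0654 and 0 TPM in -LIF-ESCs, 8.92 and 9.94 TPM in LIF-ESCs and 14.0 and 13 TPM in OSM-ESCs. The -LIF-ESCs values rest on 1 and 0 recovered reads and those of the other libraries on 116 to 219 reads, so no fold is given. Ch25h, too, passed the expression limit only through the cytokine libraries. Like Ch25h, the summed fibroblast markers were lowest in -LIF-ESCs and highest in OSM-ESCs. Whether a cell type other than the mESCs carried Ch25h was not tested. Of 7 genes tested among LXR partners and targets 2 were called higher in LIF-ESCs and 1 in OSM-ESCs, and none lower, where 13.3% and 14.2% of all genes were called higher. Ncoa1, a coactivator, was the highest, at 5.38 and 4.57 TPM in -LIF-ESCs, 14.4 and 14.0 TPM in LIF-ESCs and 14.1 and 12.8 TPM in OSM-ESCs (1.35 ± 0.091 (SE), adjusted p = 0.000117 in LIF-ESCs). Between OSM-ESCs and LIF-ESCs none of the genes of these lists passed adjusted p, where 0.463% of all genes were higher and 0.129% lower. Between 1 and 3 genes of each list were past an unadjusted p under 0.05, beside 9.8% of all genes higher and 5.5% lower.

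**Figure D5:**
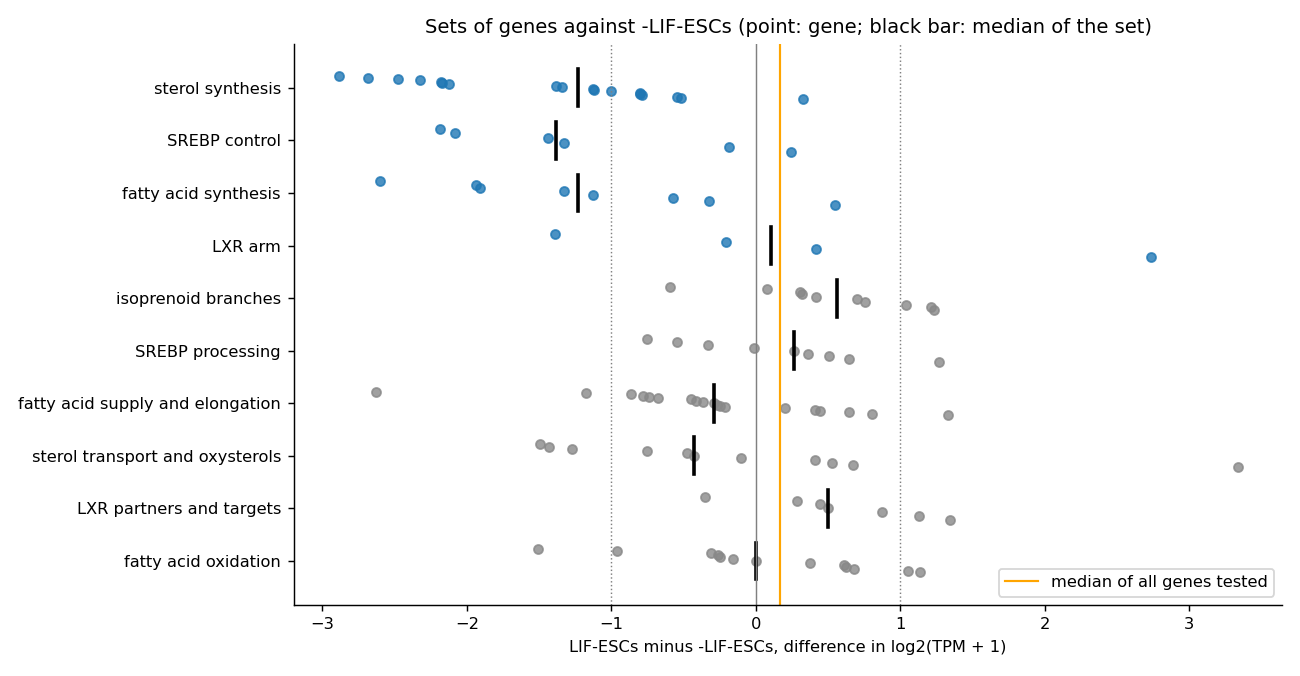
Difference in log2(TPM + 1) between LIF-ESCs and -LIF-ESCs for the genes of the 4 sets (blue) and of 6 related lists (grey), with a black bar for the median of each list, an orange line for the median of all genes tested (0.17) and dotted lines at 2-fold. The medians of sterol synthesis, SREBP control and fatty acid synthesis lie at -1.23, -1.39 and -1.23, and that of the isoprenoid branches at 0.56.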

How the data were processed

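The 6 libraries were analysed. According to the submitters' processing notes and the methods, the authors trimmed reads with Trimmomatic, mapped them to mm10 with HISAT2 and counted them per gene with featureCounts; the deposited values are TPM, which fix the total of each library, so that a rise of some genes lowers the others. The annotation, strand setting and treatment of reads matching several places were not given in the sources used here. Reads were recovered from TPM and the exon lengths of GENCODE M21 (GRCm38), which held 99.4% of the symbols once; 95.4% of the values were whole within 0.02 of a read, and for 31 of the 37 genes in all libraries. Counting error is only part of the spread.

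The log2(TPM + 1) values entered limma (version 3.58.1, under R 4.3.3; lmFit, eBayes with a trend) in 1 fit of the 3 groups, without a replicate block, for genes at or over 1 TPM in at least 2 libraries. Python 3.11.15 served for tables (pandas 2.3.3, numpy 2.4.6) and for plots (matplotlib 3.10.9). The test was tried on simulated data. Replicates differed by more than counting error (chi-square per gene of 1.97 to 3.40), so none was counted as a repeat. The genes, related lists and marker lists (pluripotent cells, fibroblasts, primitive endoderm, trophoblast and simple epithelium, adipocyte and hepatocyte) were chosen with earlier results of these data known. Values in every library are given for genes called in any comparison, the most abundant gene of each set and both genes of 6 pairs; the values of Cyp51, Ebp, Scap, Elovl6 and Lbr were added after the results were seen. Alternatives were a pseudocount of 0.1, no filter, a filter of 5 TPM, no trend, only the groups compared, a replicate block, median-ratio rescaling, limma's voom on recovered reads, adjusted p alone and each library left out.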

Additional observations from a re-analysis of the deposited data

How the results depend on the processing

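With 2 libraries a group, 3 residual degrees of freedom and 1 cell line, the spread between lines was not measured. The count of genes called lower was 22 in both comparisons with -LIF-ESCs. It was 22 for LIF and 24 for OSM after median-ratio rescaling, and 19 and 21 of the 30 genes fitted with voom. Among all genes 1502 and 1459 of 18556 were called lower in the main fit. With the rescaling 1896 and 1895 of 18556 were, and with voom 2169 and 2176 of 17273. Each library was also left out in turn, where a lone library is assumed to vary like the others. The median difference of the sterol synthesis enzymes then ran from -1.28 to -1.21 in LIF-ESCs and from -1.30 to -1.25 in OSM-ESCs. Between OSM-ESCs and LIF-ESCs it ran from -0.11 to -0.05. At adjusted p alone, the genes called higher went from 1 to 5 in LIF-ESCs and to 4 in OSM-ESCs, beside 42.2% and 42.9% of all genes. No difference turned its direction while past the test in these alternatives. Genes that crossed an adjusted p of 0.05, all under 2-fold, were Ebp, Insig2, Scap and Abcg1 in LIF-ESCs against -LIF-ESCs, Insig2 in OSM-ESCs against -LIF-ESCs and Scap between OSM-ESCs and LIF-ESCs. Genes that stayed past adjusted p but crossed the 2-fold limit were Acat2 in LIF-ESCs, lost at -0.99 without -LIF-ESCs replicate 2 and at -0.96 without LIF-ESCs replicate 1, and Lss, Cyp51 and Hsd17b7 in OSM-ESCs. Lss was gained at -1.004 with a pseudocount of 0.1, Lss and Cyp51 at -1.11 each with rescaling and at -1.13 and -1.07 with voom, and Cyp51 at -1.02 without OSM-ESCs replicate 1. Hsd17b7 was lost at -0.996 without OSM-ESCs replicate 2. The cause was not tested.

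Same-numbered libraries did not deviate together (correlations of -0.043, -0.023 and 0.027 across 18556 genes), so the numbers were not taken to pair them. With the replicate block 22 genes of the list were called lower and 1 higher in both comparisons with -LIF-ESCs. Among all 18556 genes 1504 were called lower and 2478 higher with LIF, and 1457 and 2640 with OSM. Between OSM-ESCs and LIF-ESCs the block left 0 genes of all 18556 past adjusted p. The 0 of the list in that comparison thus says nothing particular to these genes. Under the block Insig2 passed in LIF-ESCs (adjusted p = 0.0432) and Abcg1 did not (adjusted p = 0.0803).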

Other observations

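Genes of fatty acid oxidation, the opposite route to synthesis, did not share 1 direction. Of 13 measured genes 6 were higher and 6 lower in LIF-ESCs than in -LIF-ESCs at adjusted p alone in limma's test (42.2% and 25.9% of all genes), and the same counts held in OSM-ESCs (42.9% and 25.4%). With the 2-fold limit 2 were higher and 1 lower with LIF, 1 and 1 with OSM, where 13.3% and 8.09% of all genes were called in the first comparison and 14.2% and 7.86% in the second. Cpt1a, which carries fatty acids into mitochondria as the gate of the route, had the highest difference, at 24.9 and 26.1 TPM in -LIF-ESCs, 58.5 and 56.2 TPM in LIF-ESCs and 48.7 and 48.8 TPM in OSM-ESCs (1.14 ± 0.045 (SE), adjusted p = 2.19e-05 in LIF-ESCs). Acaa2, the thiolase of its last step, had the lowest, at 30.4 and 25 TPM in -LIF-ESCs, 8.09 and 10.1 TPM in LIF-ESCs and 12.0 and 11.9 TPM in OSM-ESCs (-1.51 ± 0.13 (SE), adjusted p = 0.000286 in LIF-ESCs). The median of the list was 0.00 with LIF and -0.06 with OSM, and turned to -0.16 and -0.24 with median-ratio rescaling. Ppara and Ppargc1a were not analysed here.

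Markers of cells that specialise in lipid synthesis stayed near 0. The 5 adipocyte and hepatocyte markers found summed to at most 1.43 TPM in any library, and none passed the expression limit. Primitive endoderm markers summed to 42.6 and 42.8 TPM in -LIF-ESCs, 112 and 110 TPM in LIF-ESCs and 88.5 and 90.1 TPM in OSM-ESCs. At adjusted p alone 7 of 7 tested were higher in LIF-ESCs and 5 of 7 in OSM-ESCs, beside 42.2% and 42.9% of all genes.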
